A study of Rattus norvegicus with 8 samples.

Results

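Choroid plexus epithelial genes were examined in hippocampal RNA sequencing of kindled and treated rats. The 8 genes were *Ttr*, *Enpp2*, *Folr1*, *Prlr*, *Kl*, *Kcnj13*, *Clic6* and *Aqp1*, chosen as named transcripts of this epithelium and found by their NCBI GeneID among the 22601 genes of each library. All 8 genes passed the filter of a mean of at least 0.1 FPKM (fragments per kilobase of transcript, scaled to the mapped fragments of a library) that was set for testing. The libraries came from wild type Wistar rats, with 1 rat per library. The Con. group (3 rats) received saline and later the solvents of Q808. The PTZ group (3 rats) received pentylenetetrazole (PTZ), a convulsant that blocks GABA-A receptors, at 35 mg/kg every 48 h for 28 days (14 injections) with 60 mg/kg on the last day, and then the solvents. The Q808 group (2 rats) received the same PTZ course and then the anti-convulsant compound Q808 by gavage at 30 mg/kg daily for 28 days. Rats of the PTZ and Q808 groups had a further sub-convulsive dose of PTZ on the day after the last gavage and were killed after seizure scoring. Age and sex were not given in the sources used here. The meninges had been taken off before the hippocampus was dissected.

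The choroid plexus is a folded sheet of epithelium around a vascular core that hangs in the brain ventricles and secretes cerebrospinal fluid. In the lateral ventricle it is attached along the fimbria, so that it lies directly against the hippocampus. Its cells pump sodium, chloride and bicarbonate into the ventricle, let water follow through aquaporin channels, and release carrier proteins for hormones and vitamins. *Ttr*, which encodes transthyretin, the carrier of thyroxine and of retinol-binding protein, is the most abundant known transcript of this epithelium. *Enpp2* encodes autotaxin, a secreted lysophospholipase D that makes lysophosphatidic acid, and is also expressed by oligodendrocytes. In whole tissue, fewer cells of a type and less RNA per cell cannot be told apart.

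In Con.-3, PTZ-3 and Q808-1, the mean level of 8 striatum markers was 5.48 to 6.80 on the log2(FPKM + 0.1) scale, against 1.00 to 1.95 in the other 5 libraries. The mean of the 4 dentate granule cell markers tested of 6 was 1.79 to 2.27 on that scale in the same 3 libraries and 3.65 to 4.05 in the other 5. Among them *C1ql2* stood at 3.23 to 5.09 FPKM in the 3 libraries and at 50.6 to 96.7 FPKM in the other 5, whereas *Calb1* was highest in PTZ-3 (111.9 FPKM) and Con.-3 (87.7 FPKM) and lowest in Q808-1 (26.0 FPKM). Each group held 1 or 2 libraries of each set, and values within both sets are given beside the pooled ones. Low FPKM lay on whole steps (792 of 794 low genes, within 0.02 of a whole number), and these steps gave sequencing depths of 0.854 to 1.19 relative to Con.-1.

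The promoters of 3 members are shown because *Ttr*, *Kcnj13* and *Aqp1* had the widest ranges over the libraries among the 8 genes. Each sequence is the RefSeq window of 300 bases on GRCr8, from 250 bases before to 50 after the annotated start, read along the gene. Capitals mark matches, on both strands, to the TATA box (TATAAA) or the CCAAT box (CCAAT). The same windows held no match to the Otx2 core (TAATCC) or a forkhead core (TGTTTAC).
Ttr, chr18:12218508-12218807, plus strand: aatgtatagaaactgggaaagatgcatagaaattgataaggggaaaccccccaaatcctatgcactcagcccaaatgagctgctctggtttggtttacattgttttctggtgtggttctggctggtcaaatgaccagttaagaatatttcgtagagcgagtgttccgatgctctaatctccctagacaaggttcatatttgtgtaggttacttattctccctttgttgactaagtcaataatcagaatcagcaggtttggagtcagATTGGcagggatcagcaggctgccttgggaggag
Kcnj13, chr9:95518937-95519236, minus strand: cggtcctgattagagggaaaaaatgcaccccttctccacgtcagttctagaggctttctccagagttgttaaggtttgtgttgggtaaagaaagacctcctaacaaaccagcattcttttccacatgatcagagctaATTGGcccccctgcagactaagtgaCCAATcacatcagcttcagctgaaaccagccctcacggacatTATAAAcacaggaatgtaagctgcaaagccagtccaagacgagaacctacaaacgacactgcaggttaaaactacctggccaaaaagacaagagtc
Aqp1, chr4:85812534-85812833, plus strand: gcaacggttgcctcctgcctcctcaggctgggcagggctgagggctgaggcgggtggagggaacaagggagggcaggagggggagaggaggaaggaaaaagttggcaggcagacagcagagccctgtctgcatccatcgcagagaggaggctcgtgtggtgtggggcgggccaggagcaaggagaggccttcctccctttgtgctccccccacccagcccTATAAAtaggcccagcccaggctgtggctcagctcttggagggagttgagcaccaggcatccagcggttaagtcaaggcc

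In *Kcnj13*, CCAAT matches began 88 bases before the start on the gene's own strand and 113 before it on the opposite strand. A TATA box match began 46 bases before the start in *Kcnj13* and 30 bases before it in *Aqp1*. The *Ttr* window held a CCAAT match on the strand opposite to the gene that began 17 bases after the start. Over 33469 rat promoter windows of the same length, 14.2% held the TATA motif, 37.5% the CCAAT motif, 7.17% the Otx2 core and 3.78% the forkhead core. The windows of *Kl* and *Prlr* held none of the 4 motifs.

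Among the secreted products, *Ttr* (GeneID 24856) was measured at 2495, 2462 and 87.4 FPKM in Con.-1, Con.-2 and Con.-3. It stood at 399, 271 and 475 FPKM in PTZ-1, PTZ-2 and PTZ-3, and at 156 and 6301 FPKM in Q808-1 and Q808-2. The highest library was thus 72.1 times the lowest, both the lowest Con. library and the lowest Q808 library lay under all PTZ libraries, and the groups overlapped. *Enpp2* (GeneID 84050) was measured at 162, 152 and 107 FPKM in the Con. group, at 82.2, 60.3 and 113 FPKM in the PTZ group and at 165 and 396 FPKM in the Q808 group. Its range over the libraries was 6.56-fold. PTZ-3 reached into the Con. range, while both Q808 libraries lay above all libraries of the other groups.

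Among the receptors, *Folr1* (GeneID 171049), which carries folate into the cerebrospinal fluid, stood at 10.6, 10.6 and 1.82 FPKM in the Con. group. It was at 1.96, 1.46 and 3.11 FPKM in the PTZ group and at 1.40 and 24.7 FPKM in the Q808 group. *Kl* (GeneID 83504), which encodes klotho, a co-receptor for the hormone FGF23 that is also shed into the fluid, was at 5.72, 8.77 and 0.643 FPKM in the Con. group, at 1.33, 0.771 and 1.87 FPKM in the PTZ group and at 1.01 and 25.9 FPKM in the Q808 group. In both genes Con.-1, Con.-2 and Q808-2 were the 3 highest libraries. *Prlr* (GeneID 24684), the prolactin receptor, was the least abundant member, at 0.230, 0.414 and 0.0827 FPKM in the Con. group, 0.0303, 0.0591 and 0.115 FPKM in the PTZ group and 0.0946 and 1.33 FPKM in the Q808 group. The steps of its values correspond to 14, 30 and 5 fragments in the Con. group, to 2, 4 and 6 in the PTZ group and to 5 and 84 in the Q808 group. The exact Poisson 95% interval for PTZ-1 ran from 0.00367 to 0.110 FPKM and that for Con.-3 from 0.0269 to 0.193 FPKM, so that most of the low values of *Prlr* could not be ordered by counting error alone.

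Among the channels, *Kcnj13* (GeneID 94341), which encodes the inward rectifier Kir7.1 of the apical membrane, stood at 6.43, 5.75 and 0.244 FPKM in the Con. group. It was at 1.08, 0.794 and 1.70 FPKM in the PTZ group and at 0.432 and 24.8 FPKM in the Q808 group, a range of 101-fold. *Clic6* (GeneID 304081), a member of the chloride intracellular channel family, was at 11.99, 16.7 and 1.53 FPKM in the Con. group, at 3.50, 2.05 and 5.99 FPKM in the PTZ group and at 2.84 and 43.8 FPKM in the Q808 group. The water channel gene *Aqp1* (GeneID 25240) was at 4.98, 5.61 and 0.135 FPKM in the Con. group, at 1.44, 1.06 and 4.80 FPKM in the PTZ group and at 0.772 and 17.1 FPKM in the Q808 group. *Aqp1* differed from the other channels in PTZ-3, where it stood close to Con.-1, and its 5 fragments in Con.-3 allow 0.0438 to 0.315 FPKM (exact Poisson 95% interval, counting error only).

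**Figure D1:**
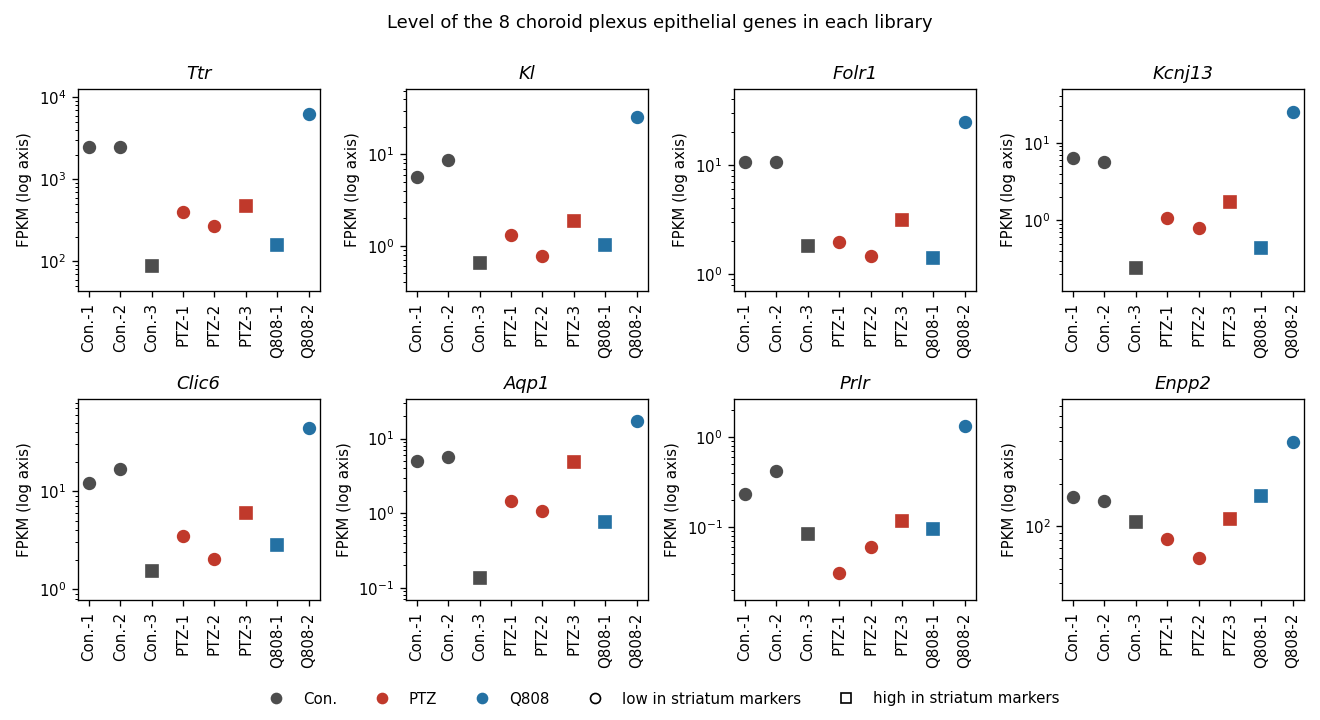
FPKM of each gene (log axis) in the 8 libraries, coloured by group, with squares for the 3 libraries high in striatum markers and circles for the other 5. Q808-2 is the highest library in all 8 panels, up to 6301 FPKM for Ttr, and Con.-3 lies far under the other Con. libraries in every gene except Enpp2, where the gap is smaller (107 against 152 and 162 FPKM).

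In mean FPKM over the 8 libraries, *Ttr* (1581) came before *Enpp2* (155), *Clic6* (11.1), *Folr1* (6.95), *Kl* (5.75), *Kcnj13* (5.15), *Aqp1* (4.48) and *Prlr* (0.294). The ranges of *Ttr* and *Enpp2* overlapped, as *Ttr* lay under *Enpp2* in Con.-3 and Q808-1. The ranges of the 5 genes from *Clic6* to *Aqp1* overlapped, and the order of neighbours among them was not tested. *Prlr* lay under *Aqp1* in every library. In the Q808 group the SD was above the mean in all members but *Enpp2*. Mean *Ttr* was 1681 ± 1381 FPKM (SD, n = 3) for Con. rats, 382 ± 103 FPKM (SD, n = 3) for PTZ rats and 3229 ± 4345 FPKM (SD, n = 2) for Q808 rats. Mean *Enpp2* was 140 ± 29.1 FPKM (SD, n = 3), 85.3 ± 26.7 FPKM (SD, n = 3) and 280 ± 163 FPKM (SD, n = 2). Over the 15593 genes tested, the median range between the lowest and the highest library was 1.01 in log2(FPKM + 0.1). The range was 6.19 in *Aqp1*, 6.17 in *Kcnj13* and 6.17 in *Ttr*, ranks 23 to 25 among all genes, and 2.71 in *Enpp2*, rank 1027.

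How far the genes rose and fell together was described by the order of the libraries. The 8 libraries make 28 pairs, and for each pair of genes the library pairs that both genes put in the same order were counted. Because the libraries lay in separate sets in *Ttr* (87.4 to 475 FPKM in 5 libraries and 2462 to 6301 FPKM in 3), no pooled correlation between members was tested. Among the 7 members other than *Enpp2*, the 21 gene pairs shared the order of 22 to 28 of the 28 library pairs, with a median of 26. All 8 genes were highest in Q808-2, and in all but *Enpp2* the next 2 libraries were Con.-1 and Con.-2. *Enpp2* and the other members shared the order of 20 to 23 of the 28 library pairs, with a median of 21, and Q808-1 took the second place in it, ahead of Con.-1 at 162 FPKM.

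**Figure D2:**
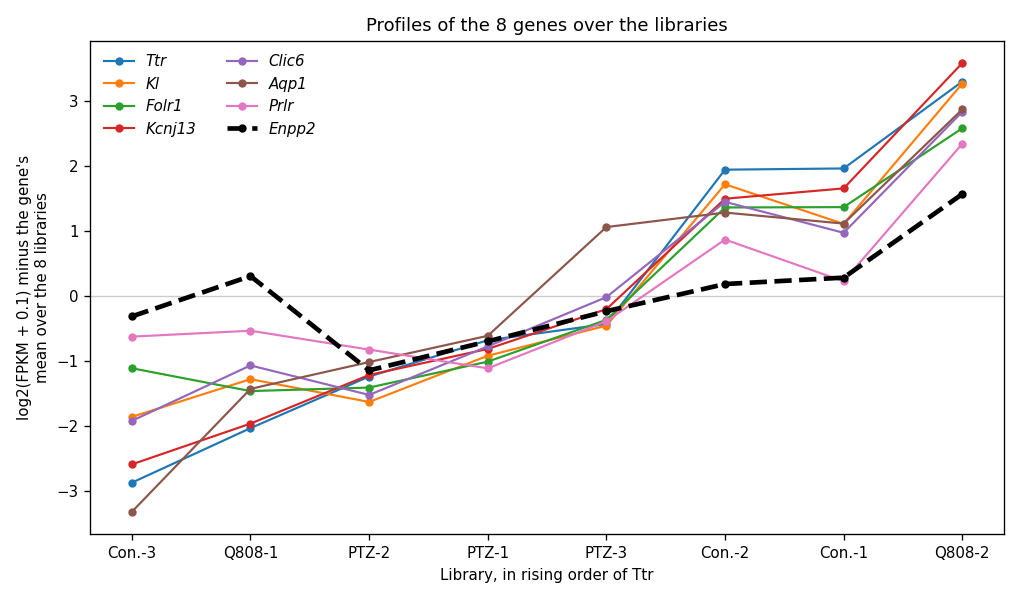
Each line is a gene, drawn as log2(FPKM + 0.1) minus its mean over the 8 libraries, with the libraries in rising order of Ttr. The 7 other genes have ranges of 3.45 to 6.19 and are highest in Con.-2, Con.-1 and Q808-2. Not all of them rise at each step, and Prlr is lower in PTZ-1 than in Con.-3. Enpp2 (dashed) is flatter, with a range of 2.71, and has a second high point in Q808-1.

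The library pairs that *Enpp2* and *Ttr* put in opposite order all held Con.-3 or Q808-1, which are among the 3 libraries high in striatum markers. In the 5 libraries low in those markers, *Enpp2* and *Ttr* put all 10 library pairs in the same order, from PTZ-2 (60.3 FPKM of *Enpp2* with 271 of *Ttr*) over PTZ-1 (82.2 with 399), Con.-2 (152 with 2462) and Con.-1 (162 with 2495) to Q808-2 (396 with 6301). In Con.-3 and Q808-1, by contrast, *Enpp2* was at 107 and 165 FPKM with *Ttr* at 87.4 and 156 FPKM. The ratio of *Ttr* to *Enpp2* was 15.4, 16.2 and 15.9 in Con.-1, Con.-2 and Q808-2, and 0.814 and 0.948 in Con.-3 and Q808-1. PTZ-3, also high in striatum markers, had a ratio of 4.19, next to 4.86 and 4.50 in PTZ-1 and PTZ-2. The ratio of *Ttr* to *Kcnj13* ranged from 254 to 428 over all libraries. The ratio of *Ttr* to *Kl* ran from 136 in Con.-3 to 436 in Con.-1, that to *Folr1* from 48.05 in Con.-3 to 255 in Q808-2, that to *Clic6* from 55.1 in Q808-1 to 208 in Con.-1, and that to *Aqp1* from 99.0 in PTZ-3 to 647 in Con.-3. In Con.-3 and Q808-1 *Ttr* was thus lowest also against *Kl*, *Folr1* and *Clic6*, over a narrower range than against *Enpp2*. The order of *Enpp2* was not shared with choroid plexus genes alone. In the 5 libraries low in striatum markers it shared 10 of 10 pairs with the mean of meningeal markers. With the means of endothelial and of ependymal markers it shared 9 of 10 each. Over all 28 library pairs these counts were 21, 21 and 20, beside 20 to 23 with the other members.

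Markers of oligodendrocytes, which also express *Enpp2*, moved with these libraries. *Mbp*, which encodes myelin basic protein, was at 3316, 3536 and 7875 FPKM in Con.-3, PTZ-3 and Q808-1, and at 1241 to 2235 FPKM in the other 5 libraries. Over all 9 oligodendrocyte markers the mean level on the log2(FPKM + 0.1) scale was 6.89 to 8.35 in the Con. group, 7.12 to 8.28 in the PTZ group and 7.33 to 9.04 in the Q808 group, highest in Q808-1. Among Con.-3, Q808-1 and the 3 PTZ libraries, where *Ttr* stayed under 500 FPKM, *Enpp2* and *Mbp* put all 10 library pairs in the same order, and *Enpp2* and *Ttr* 5 of the 10. Over these 5 libraries *Enpp2* also shared the order of all 10 pairs with the mean of 6 endothelial markers. These 5 libraries were picked after their values were seen, the orders are a description, and the part of oligodendrocytes or vessels in the *Enpp2* level was not tested. Over all 28 library pairs *Enpp2* shared 16 with *Mbp*, 15 with the mean of the oligodendrocyte markers and 21 with *Ttr*. In the libraries low in striatum markers it shared 5 of 10 pairs with *Mbp* and 10 of 10 with *Ttr*.

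**Figure D3:**
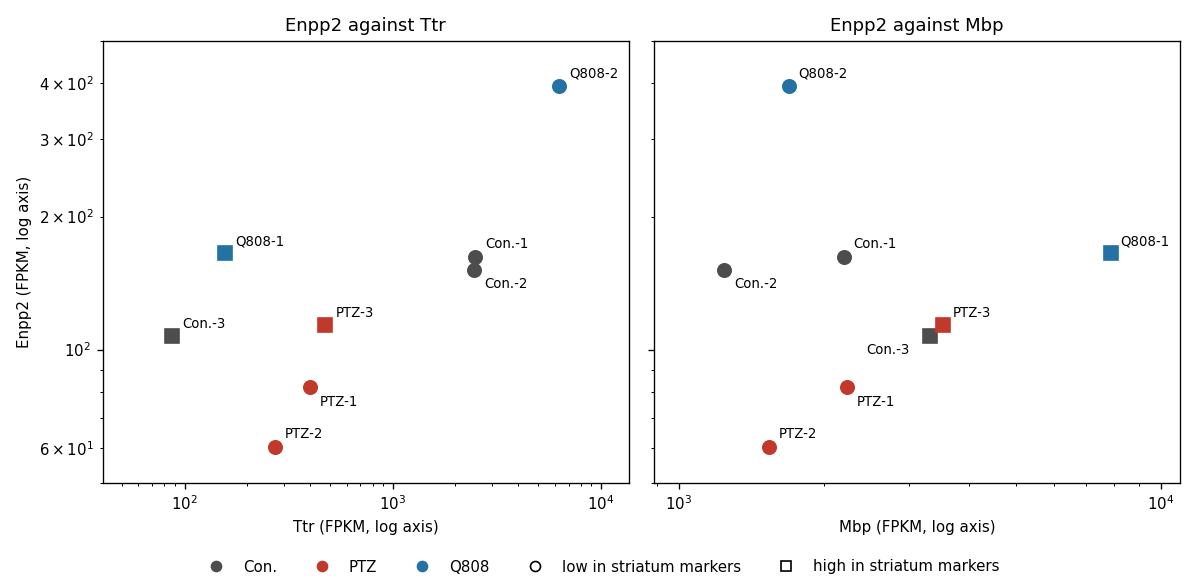
Enpp2 (FPKM, log axis) in each library against Ttr on the left and Mbp on the right (FPKM, log axes), with group colours and with squares for the libraries high in striatum markers. Circles rise from PTZ-2 to Q808-2 with Ttr, whereas Con.-3 and Q808-1 lie to the left of that rise, at 87.4 and 156 FPKM of Ttr, and the highest Mbp value (7875 FPKM) belongs to Q808-1.

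Between the PTZ and Con. groups, *Enpp2*, which the study itself selected on these libraries, was the only member called, where a call takes a change above 1.5-fold with an unadjusted limma p-value below 0.05. That is 1 of 8 genes, beside 2.53% of the 15593 genes tested, or 0.84% counting lower calls only. No member had groups that did not overlap, beside 9.15% of all genes. *Enpp2* fell by 0.74 on the log2 scale in the PTZ group (95% interval -1.36 to -0.12), with a limma adjusted p of 0.999 that ranged from 0.0472 to 1.00 across the alternatives. A two-sided exact permutation test over the libraries gave p = 0.2 for it, where 0.1 is the smallest p that 3 against 3 libraries allow. The call was lost when Con.-1, Con.-2, PTZ-1 or PTZ-2 was left out, and with all 3 groups fitted together. The paper also measured *Enpp2* by qRT-PCR. It reported a significantly lower level in the PTZ group than in the Con. group, and an increase after Q808 treatment. Those qRT-PCR values are not among the data used here. *Ttr* had a log2 fold change of -1.13 with a 95% interval from -4.03 to 1.78, and *Folr1*, also selected by the study for this comparison, -1.47 with an interval from -3.09 to 0.15. The log2 fold changes of the other members lay between -1.32 (*Kl*) and 0.12 (*Aqp1*), and the median over the 8 was -0.94, against -0.04 over all genes tested. With the replicate number of the labels as a block, 1 member was again called, *Enpp2*, beside 3.95% of all genes.

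The direction of this difference turned between the library sets. In Con.-1, Con.-2, PTZ-1 and PTZ-2, all 8 genes were lower in the PTZ libraries, by log2 differences from -2.91 (*Ttr*) to -1.15 (*Enpp2*). Fitted on these 4 libraries alone, all 8 members were called, beside 9.81% of all genes. Of the members, 7 had a limma adjusted p under 0.05, beside 0.898% of all genes, with 0.00813 for *Ttr*, 0.0472 for *Enpp2* and 0.169 for *Prlr*. This set of libraries was formed by striatum marker values of these same data. The members moved together over the libraries, so calls of several members, here and below, are not independent of each other. Between PTZ-3 and Con.-3, all 8 genes were higher in PTZ-3, by log2 differences from 0.08 (*Enpp2*) and 0.24 (*Prlr*) to 4.38 (*Aqp1*), with no replicates. The exact Poisson 95% intervals of these libraries overlapped in *Enpp2*, *Prlr* and *Folr1*, so the turn is least certain there. Leaving out Con.-3 alone gave 7 members called, all lower in the PTZ group, beside 4.10% of all genes. The difference between the sets was not tested.

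Between the Q808 and PTZ groups, *Enpp2* was again the only member called, 1 of 8 beside 1.92% of all genes, or 1.36% counting higher calls only. It rose by 1.63 on the log2 scale (95% interval 0.59 to 2.67), with a limma adjusted p of 0.952 that ranged from 0.160 to 1.00 across the alternatives. The two-sided exact permutation test gave p = 0.1, the smallest that 2 against 3 libraries allow. Both Q808 libraries lay above all PTZ libraries, as they did for 15.6% of all genes in either direction, and *Enpp2* was the only member for which the groups did not overlap. The other 7 members had log2 fold changes from 0.91 (*Aqp1*) to 2.00 (*Kl*), none of them called, with standard errors from 0.87 to 1.48. For *Ttr* the value was 1.42 with a 95% interval from -1.99 to 4.82. The PTZ libraries are shared with the comparison above, so that both are not independent.

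Both Q808 libraries were far apart. Q808-2 was 40.3 times Q808-1 in *Ttr*, 57.3 times in *Kcnj13*, 25.6 times in *Kl* and 2.40 times in *Enpp2*. In the libraries low in striatum markers, Q808-2 was above the mean of PTZ-1 and PTZ-2 in all 8 genes, by log2 differences from 2.49 (*Enpp2*) to 4.60 (*Kcnj13*), and all 8 were called there, beside 9.26% of all genes, with limma adjusted p-values of 0.160 to 0.207. In that fit the lone Q808 library is assumed to vary like the others. Against PTZ-3, in the other set, Q808-1 was lower in 7 of the 8 genes, by -0.15 (*Prlr*) to -2.49 (*Aqp1*) on the log2 scale, and higher in *Enpp2* by 0.54. The exact Poisson 95% intervals of these libraries overlapped in *Prlr*. Without Q808-1 all 8 members were called, beside 2.07% of all genes, and without Q808-2 there were 2, *Enpp2* higher and *Ttr* lower in Q808-1 (log2 fold change -1.25), beside 8.34% of all genes. The log2 fold change of *Enpp2* was 2.26 without Q808-1 and 1.00 without Q808-2, and both of these fits rest on a lone Q808 library that is assumed to vary like the PTZ libraries. Without Q808-2 the log2 fold changes of 6 of the 8 members were below 0, from -0.28 (*Kl*) to -1.25 (*Ttr*). Those of *Enpp2* and *Prlr* stayed above 0. The direction of the other 6 in the pooled comparison was thus set by Q808-2.

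Between the Q808 and Con. groups none of the 8 members was called, beside 3.46% of all genes by the same limma rule, and none had an unadjusted p-value under 0.05, beside 4.28% of all genes. *Enpp2* had a log2 fold change of 0.89 with a 95% interval from -0.15 to 1.92, and its groups did not overlap, as for 20% of all genes. The other members had log2 fold changes from 0.02 (*Folr1*) to 1.03 (*Aqp1*), and 8 of 8 were above 0, against 6 after quantile normalization, 7 after median ratio scaling, 2 without Con.-3 or with the replicate block, and 1 without Q808-2. In the libraries low in striatum markers, Q808-2 was above both Con.-1 and Con.-2 in all 8 genes, by log2 differences from 1.22 (*Folr1*) to 2.01 (*Kcnj13*). All 8 were called in that fit, beside 4.71% of all genes, with limma adjusted p-values of 0.471 to 0.750, and the lone Q808 library is again assumed to vary like the others. Between Q808-1 and Con.-3, 7 genes were higher in Q808-1 and *Folr1* was lower by -0.35 on the log2 scale. The exact Poisson 95% intervals of these libraries overlapped in *Folr1*, *Kl*, *Kcnj13* and *Prlr*.

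**Figure D4:**
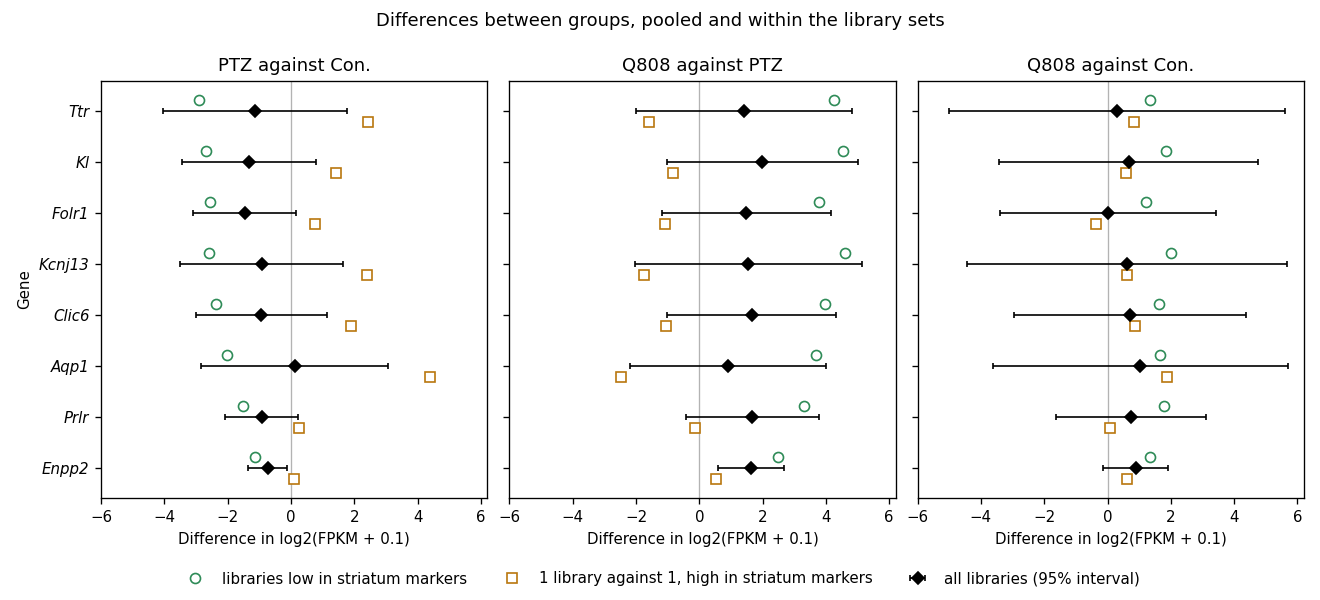
Differences in log2(FPKM + 0.1) for the 8 genes in the 3 comparisons. Diamonds with bars give the limma fold change and its 95% interval over all libraries, open circles the libraries low in striatum markers and open squares a single pair of libraries high in them. For PTZ against Con. all circles lie left of 0, from -2.91 to -1.15, and all squares right of it, and only for Enpp2 does the pooled interval leave out 0 in 2 of the panels.

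Other transcripts of the choroid plexus were taken as a list of 16 genes outside the members. *Otx2*, a transcription factor of this epithelium, was listed at 0 in all 8 libraries, and 15 genes were tested. Their mean level on the log2(FPKM + 0.1) scale was -0.08 to 2.26 in the Con. group, 0.46 to 0.98 in the PTZ group and 0.26 to 3.41 in the Q808 group, and it put 27 of the 28 library pairs in the same order as *Ttr*. The 4 most abundant were *Car12*, a carbonic anhydrase, *Slc31a1*, a copper transporter, *Calml4*, a calmodulin-like gene, and *Sostdc1*, a secreted BMP antagonist. *Sostdc1* was at 13.7, 11.5 and 0.744 FPKM in the Con. group, 1.57, 1.25 and 2.44 FPKM in the PTZ group and 1.15 and 37.3 FPKM in the Q808 group. *Car12* spread only from 26.2 to 52.8 FPKM, with the highest value in Con.-3, so that it did not share this pattern. *Slc31a1* also spread little, from 10.5 to 19.6 FPKM, with PTZ-1 (13.0 FPKM) above Con.-1 (11.7 FPKM). *Calml4* ran from 1.72 FPKM in Q808-1 to 20.1 FPKM in Q808-2. None of the 15 was called by limma in PTZ against Con., beside 2.53% of all genes (1, *Car12*, had an unadjusted p-value under 0.05, 0.0107, below 1.5-fold). The median log2 fold change was -0.78, against -0.04 over all genes. For Q808 against PTZ 1 was called, beside 1.92% of all genes. This was *Kcne2*, a potassium channel subunit named because it was the one, with a log2 fold change of 2.10. The median over the list was 0.94, against 0.10 over all genes. None was called for Q808 against Con., beside 3.46% of all genes, and 0 had an unadjusted limma p-value under 0.05, beside 4.28%.

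Of 16 genes of ion and fluid transport in this epithelium, 4 of which are also in the list above, none was called by limma in PTZ against Con., beside 2.53% of all genes (1, *Car12*, passed p but not 1.5-fold). Of the 16, 3 rose in Q808 rats over PTZ rats, the bicarbonate exchanger *Slc4a2* (log2 fold change 1.35), the carbonic anhydrase *Car14* (1.29) and *Kcne2*, beside 1.36% of all genes called higher, and each had a limma adjusted p of 0.952. *Slc4a2* and *Car14* were also called higher in Q808 than in Con. rats, by 0.88 and 0.92, beside 3.46% of all genes called, with a limma adjusted p of 0.901 for both. Abundant genes of the list included the sodium pump subunit *Atp1b1*, the carbonic anhydrase *Car2* and the pump regulator *Fxyd1*, which neurons or glia express as well. *Atp1b1* was at 447 to 663 FPKM in the 3 libraries high in striatum markers and at 1016 to 1160 FPKM in the other 5.

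The genes around autotaxin were counted as a list of lysophosphatidic acid receptors, lipid phosphatases and related enzymes. By limma none of the 15 tested of 17 was called in any of the 3 comparisons, and 0 had an unadjusted p-value under 0.05. Of all genes, 2.53% were called in PTZ against Con., 1.92% in Q808 against PTZ and 3.46% in Q808 against Con. A count of 0 of 15 lies near those shares. The median log2 fold change was 0.06 in PTZ against Con. rats (-0.04 over all genes), 0.25 between Q808 and PTZ rats (0.10), and 0.29 between Q808 and Con. rats (0.045). *Enpp5*, a relative of autotaxin, was at 117 to 198 FPKM, *Plpp3*, which breaks down lysophosphatidic acid, at 85.3 to 121 FPKM, *Plppr4* at 19.6 to 95.3 FPKM and *Enpp4* at 12.4 to 35.6 FPKM. The receptor gene *Lpar1*, which oligodendrocytes express, was at 18.6, 18.5 and 31.9 FPKM in Con.-3, PTZ-3 and Q808-1 and at 6.81 to 10.9 FPKM in the other 5 libraries.

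Markers of tissue next to the hippocampus differed between libraries as well. The mean of 8 meningeal markers tested of 9, among them the collagen genes *Col1a1* and *Col3a1*, was -0.30 to 1.57 in the Con. group, 0.28 to 1.90 in the PTZ group and 0.93 to 2.73 in the Q808 group on the log2(FPKM + 0.1) scale. It was highest in Q808-2, lowest in Con.-3, and put 24 of 28 library pairs in the same order as *Ttr*. PTZ-3 came directly after Q808-2 in this list, and behind Con.-1 and Con.-2 in *Ttr*. *Col3a1* reached 9.56 FPKM in Q808-2 and 7.61 FPKM in PTZ-3, against 0.676 to 2.17 FPKM in the other 6 libraries. The more abundant *Dcn* and *Fmod* were also highest in Q808-2 but did not have PTZ-3 in second place. *Dcn* was at 7.81 FPKM in PTZ-3, under Con.-1 (15.2), Con.-2 (11.6), PTZ-1 (14.4) and PTZ-2 (14.2). *Fmod* was at 5.14 FPKM in PTZ-3, under Con.-1 (6.30) and Con.-2 (8.48). The mean of 7 ependymal markers, among them the ciliary regulator *Foxj1*, shared the order of *Ttr* in 17 of 28 pairs, that of 6 endothelial markers in 14, that of 8 striatum markers in 7 and that of 9 oligodendrocyte markers in 8. The part of dissected choroid plexus and meninges in these levels was not tested, and each library was measured once.

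**Figure D5:**
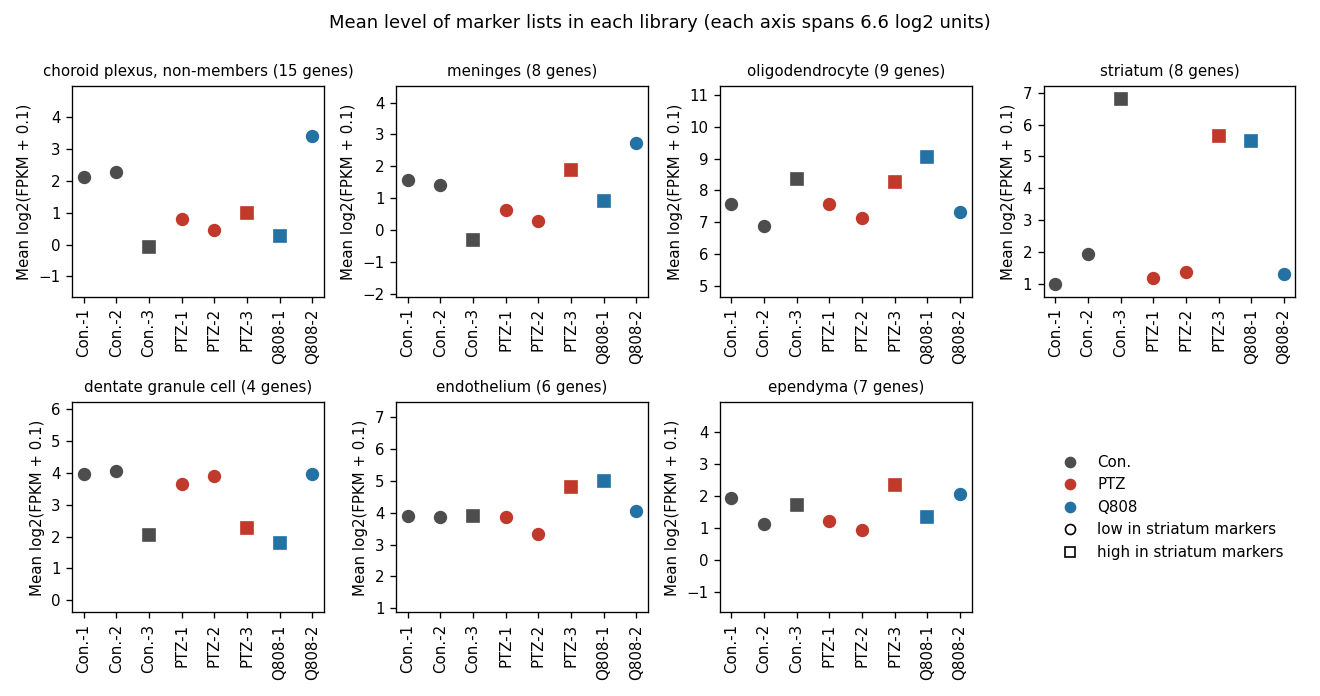
Mean log2(FPKM + 0.1) of marker lists in each library, on axes of equal span, with group colours and with squares for the libraries high in striatum markers. The choroid plexus list without the 8 members is highest in Q808-2 (3.41) and lowest in Con.-3 (-0.08), the striatum list is high in 3 libraries (5.48 to 6.80), and the oligodendrocyte list is highest in Q808-1 (9.04).

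The genes most like *Ttr* were taken by Pearson's r of log2(FPKM + 0.1) over the 8 libraries, among 12563 genes whose mean reached 1 FPKM, which leaves out *Prlr*. Since the libraries lie in separate sets and share dissection and depth, r serves here only to rank genes. Of the 12562 other genes, 30 had an r of at least 0.95. Outside the members the first 10 were *Cldn2*, *Sostdc1*, *Mfrp*, *Cibar1*, *F5*, *Cpxm1*, *Pdia6*, *Steap1*, *Cltrn* and *Slc13a4*, with r from 0.973 to 0.9985. *Cldn2*, a claudin of leaky epithelia, was at 7.08, 9.21 and 0.183 FPKM in the Con. group, 1.24, 0.838 and 1.46 FPKM in the PTZ group and 0.445 and 22.9 FPKM in the Q808 group. *Pdia6*, a protein disulfide isomerase of the endoplasmic reticulum, was among these 10 and ranged only from 74.5 to 104 FPKM. Of the members, *Kcnj13* was at rank 2, *Clic6* at 13, *Kl* at 15, *Folr1* at 22 and *Aqp1* at 50, while *Enpp2* was at rank 1485 with r = 0.676.

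By the same measure, the 5 genes most like *Enpp2* were *Ptgds*, *Slc6a13*, *Slc4a2*, *Mmp14* and *Itpripl1*, with r from 0.970 to 0.989. *Ptgds* encodes prostaglandin D2 synthase, a protein of cerebrospinal fluid made in leptomeninges, choroid plexus and oligodendrocytes. It was at 657, 550 and 359 FPKM in the Con. group, 293, 214 and 517 FPKM in the PTZ group and 614 and 1595 FPKM in the Q808 group. As in *Enpp2*, Q808-2 was the highest library and PTZ-2 the lowest, and Q808-1 stood above Con.-2. *Slc6a13*, a GABA transporter of leptomeninges, was at 5.44 FPKM in Q808-2 and at 0.443 FPKM in PTZ-2. *Kl* was the member nearest to *Enpp2* (rank 153), and *Aqp1* was the farthest (rank 1031).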

How the data were processed

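Hippocampal RNA of 8 rats was sequenced, 1 library per rat. Reads were trimmed by Trimmomatic, and the FPKM per gene that the authors deposited came from Cufflinks. The submitters' notes also list HISAT2 and other tools without roles. Aligner version and genome build were not given in the sources used here. No read counts were used. Whole fragment numbers behind FPKM were recovered only for description, as the fewest that give the deposited values, since FPKM call for tests on a log scale. Rows were matched by GeneID, with symbols for 20633 of 22601 genes from RefSeq (GRCr8) and promoter sequences for 5 of the 8 members.

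Groups came from the labels. The study's own test on counts was replaced by limma 3.58.1 (R 4.3.3, empirical Bayes with a trend) on log2(FPKM + 0.1), each comparison on its own groups, for 15593 genes whose mean reached 0.1 FPKM. Calls took a change above 1.5-fold and an unadjusted p-value below 0.05, with Benjamini-Hochberg adjustment over all genes. Fold changes of low genes are understated on this scale. A two-sided exact permutation test over libraries was added for *Enpp2*. The limma fit was also run on simulated data with known answers, and the outcome is not given here. Other work used Python 3.11.15, pandas 2.3.3, numpy 2.4.6, scipy 1.17.1 and matplotlib 3.10.9. Named genes were the 8 members, at most 4 of each list by mean FPKM, and those most like *Ttr* (10) and *Enpp2* (5), of which 1 list gene is not reported here. Further genes of the lists (*C1ql2*, *Calb1*, *Mbp*, *Lpar1*, *Foxj1*, *Col1a1*, *Col3a1*, *Otx2*, *Fgf23* and those called) were named after their values were seen. The members and lists were chosen with earlier results of these data known. *Folr1* and *Enpp2* are among the genes the study itself selected on these libraries.

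Libraries of the same number deviated together between the Con. and PTZ groups, with correlations across genes of 0.212, 0.299 and 0.422. Con.-2 and PTZ-1, of unlike number, reached 0.322, and Con.-3 and PTZ-3 (0.422) were both high in striatum markers. These values do not establish a pairing of rats, and the labels give none. The number therefore served as a block only in an alternative fit. The alternatives were pseudocounts of 1 and 0.01, no filter, a minimum mean of 1 FPKM, a joint fit of all 3 groups, limma without its trend, median ratio scaling, quantile normalization, the replicate block, each library left out, the 3 libraries high in striatum markers left out, and the striatum list mean as a covariate.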

Additional observations from a re-analysis of the deposited data

How the results depend on the processing

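The members called in PTZ against Con. numbered 1 with all libraries, 0 with all 3 groups in a fit, 8 without the 3 libraries high in striatum markers and 0 to 7 (7 without Con.-3, 0 without Con.-1, Con.-2, PTZ-1 or PTZ-2) across the fits that each left out 1 library. In Q808 against PTZ they numbered 1, and 8 without those 3 libraries, 2 (*Enpp2* and *Prlr*) with the striatum covariate and 1 to 8 with a library left out (8 without Q808-1, 2 without Q808-2). In Q808 against Con. they numbered 0, and 8 without the 3 libraries, 1 (*Enpp2*) with the covariate, 1 (*Enpp2*) after quantile normalization and 0 to 2 with a library left out (2 without Q808-1). *Aqp1* turned from 0.12 to -2.01 in PTZ against Con. without the 3 libraries, and *Ttr* ranged from -1.25 to 4.08 in Q808 against PTZ with a library left out, with -1.25 when Q808-2 was missing. *Enpp2* and *Ttr* shared the order of 75% of library pairs, of 100% without the 3 libraries, and of 66.7% to 90.5% with a library left out, with 90.5% without Q808-1. Where libraries were left out, the fits hold fewer libraries, and otherwise the cause was not tested.

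All genes called numbered 395 in PTZ against Con., and 219 with a pseudocount of 1, 616 with the replicate block, 652 with the covariate, 1530 without the 3 libraries and 249 to 1135 with a library left out (249 without PTZ-2, 639 without Con.-3, 1135 without PTZ-3). They numbered 300 in Q808 against PTZ, and 193 at a mean FPKM of at least 1, 708 with the covariate, 1444 without the 3 libraries and 132 to 1569 with a library left out (132 without PTZ-1, 149 without PTZ-2, 1301 without Q808-2, 1569 without PTZ-3). They numbered 540 in Q808 against Con., and 340 with a pseudocount of 1, 927 with the covariate and 279 to 1799 with a library left out (279 without Con.-2, 351 without Q808-1, 1799 without Q808-2). In the comparisons with the Q808 group only 2 numbers are shared, and the libraries share only a number. The replicate block gave 1894 calls in Q808 against PTZ and 1076 in Q808 against Con., with 1 and 0 members among them, and it changed no call of a member in any comparison. With 3, 3 and 2 libraries, the spread between rats limits these values, and counting error limits *Prlr*.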

Other observations

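Partners of the members were also measured. Of 19 genes for retinol and thyroxine handling, folate transport and the klotho and prolactin pathways, 18 were tested. None was called in PTZ against Con., beside 2.53% of all genes (by limma, with 0 below an unadjusted p of 0.05). The median log2 fold change was -0.14, against -0.04 over all genes. *Folr2* and *Cish*, named because they were called, rose in Q808 against PTZ with log2 fold changes of 1.38 and 0.96, and *Dio2*, which encodes the deiodinase that activates thyroxine, rose in Q808 against Con. by 0.85. These calls stand beside 1.92% of all genes called in Q808 against PTZ and 3.46% in Q808 against Con., with limma adjusted p-values of 0.952 for *Folr2* and *Cish* and 0.901 for *Dio2*. *Rbp4*, which encodes the retinol-binding protein that transthyretin carries, was at 19.4, 14.9 and 51.0 FPKM in the Con. group, 21.2, 17.9 and 47.9 FPKM in the PTZ group and 32.9 and 26.4 FPKM in the Q808 group. Its 3 highest libraries were those high in striatum markers, and not those high in *Ttr*. *Slco1c1*, a thyroxine transporter of brain endothelium, ranged from 24.2 to 60.5 FPKM and was lowest in PTZ-2 and highest in Q808-1. *Fgfr1*, the receptor that klotho joins, was at 19.4 to 24.5 FPKM in the 3 libraries high in striatum markers and at 54.3 to 80.4 FPKM in the other 5. *Fgf23* was listed at 0 in the Con. and PTZ libraries and at 0.107 and 0.0896 FPKM in Q808-1 and Q808-2. Its mean of 0.0246 FPKM lay under the filter of 0.1 FPKM, so that it was not tested, and such values are near the floor.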
